A study of Mus musculus with 6 samples.

Results

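YAP, TAZ, their TEAD partners, the kinases that restrain them and a few of their best known target genes were followed in adult mouse kidney after an inducible deletion aimed at Pax2 and Pax8. The set holds 10 genes of the 22180 that were tested. The transcriptional coactivators are Yap1 (YAP) and Wwtr1 (TAZ). Tead1 and Tead4 encode DNA-binding partners, Lats1 and Lats2 encode the inhibitory kinases, and Ajuba and Amotl2 encode adaptor proteins. The remaining members, Ankrd1 and Axl, are widely used target genes. The members were chosen by symbol, and where a gene had several transcript clusters the cluster was selected on its mean over all 6 arrays, the highest being taken. This mattered for Yap1 alone, whose other cluster lay between 3.19 and 3.36 log2 on the 6 arrays. Earlier results of these data were known when the set was drawn up, and Ankrd1 was already among the largest rises. Its difference between the groups is therefore a description, with no test. For the other members, Axl and Ajuba included, the adjusted p-values make no allowance for this choice.

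Total RNA from bisected kidneys was read on Mouse Gene 2.1 ST microarrays (Affymetrix), and each sample had its own array. The 3 arrays labelled Pax28 dKO (replicates 1, 3 and 5; "dKO" here) come from mice homozygous for floxed Pax2 and floxed Pax8 with Rosa26CreER, a tamoxifen-activated Cre recombinase made from a broadly expressed locus. The 3 controls (2, 4 and 6) were Cre negative and also received tamoxifen, so the groups share the drug but not the Cre. Their alleles of Pax2 and Pax8 are not stated. Tamoxifen (50 mg/kg) was injected 3 times at 8 weeks of age and 3 times at 10 weeks, with tissue collected 14 days later. Each group has 2 females and 1 male (dKO 1 and control 4). Whether every array stands for its own animal is not stated in the labels; the p-values then cover only the spread among these arrays, which may be technical.

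Some facts of the series bear on every value below. Pax8 was higher, not lower, on the arrays labelled dKO, where it stood at 10.36 ± 0.24 log2 against 9.0 ± 0.10 (SD, n = 3). Its difference of 1.36 ± 0.12 (SE) passed (limma adjusted p = 0.0037). Pax2 stood at 6.25 ± 0.21 against 5.98 ± 0.18 and did not pass (adjusted p = 0.19). Which exons Cre removes is not stated, and probes outside the deleted part check nothing. Every direction is thus that of the arrays labelled dKO. The 8 tubule markers that define the tissue lay at 8.24 log2 or higher on all arrays. Over all genes tested 3.08% passed as lower. Of these 8 markers, 3 passed as lower on the dKO arrays (Slc34a1 at -0.47, Cdh16 at -0.59 and Aqp2 at -0.88 log2) and none as higher. Differences of the 8 ran from -0.88 to 0.33 log2, and 2 of them were positive. The median difference over the 8 was -0.34. Their summed level, the log2 of the added linear values, was 13.96 to 14.09 on controls and 13.82 to 13.89 on dKO arrays. The part of the tubule markers in the results was not tested. The brown fat gene Ucp1 differed between arrays, reaching 7.77 log2 on control 2 and 7.53 on control 6, against 3.53 to 5.12 elsewhere. Cox8b, another adipose marker, was about as high on dKO 3 (5.72) and dKO 5 (5.21) as on those controls (5.22 and 5.19). In bulk tissue, fewer cells of a type and less RNA per cell cannot be told apart. Levels are log2 values, and a level is not compared between genes, because each cluster has its own probes. The array medians lay between 3.81 and 3.87, and the number of arrays limits the precision.

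The Hippo pathway is a kinase relay: MST kinases activate LATS kinases, which phosphorylate YAP and TAZ and keep them out of the nucleus. When the relay is quiet, YAP and TAZ enter the nucleus, bind TEAD proteins and switch on genes of growth, matrix and cytoskeleton. Much of this control acts on protein phosphorylation and location, which an RNA array does not measure. In kidney, the pathway is known for its part in nephron and branching development, in cyst growth and in the tubule's answer to injury.

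TEAD proteins recognise a short DNA word, GGAATG, which reads CATTCC on the opposite strand. RefSeq promoter windows (build GRCm38.p6) were found for 8 of the 10 members, all but Tead1 and Tead4, and the 250 bases before each transcription start were searched on both strands. The word occurred for 6 of these 8 genes. Over all 32851 promoters in the table, 12.6% hold it. Counted by gene, as for the members, the share was 13.4% of 16990 tested genes with a window. The members were chosen as pathway genes or known targets, so nothing is read from their count. The members with a match were Ankrd1, Axl, Amotl2, Ajuba, Yap1 and Wwtr1, and the windows of Lats1 and Lats2 held none. The windows below belong to the genes of the set whose groups lie farthest apart, Ankrd1, Axl and Ajuba, and to Ccn1, a classical YAP target outside the set. Each is printed 5′ to 3′ on the gene's strand, with matches to the word in capitals.
Ankrd1, chr19:36119845-36120094, minus strand: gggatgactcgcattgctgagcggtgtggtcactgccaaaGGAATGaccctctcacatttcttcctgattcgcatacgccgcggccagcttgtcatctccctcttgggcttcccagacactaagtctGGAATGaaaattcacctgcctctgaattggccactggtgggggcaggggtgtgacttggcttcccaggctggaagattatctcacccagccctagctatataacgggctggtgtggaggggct
Axl, chr7:25788734-25788983, minus strand: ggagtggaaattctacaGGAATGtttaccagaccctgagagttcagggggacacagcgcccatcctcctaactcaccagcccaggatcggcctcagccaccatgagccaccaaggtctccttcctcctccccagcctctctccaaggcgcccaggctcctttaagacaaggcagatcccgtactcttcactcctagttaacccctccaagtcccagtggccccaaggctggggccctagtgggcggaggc
Ajuba, chr14:54577662-54577911, minus strand: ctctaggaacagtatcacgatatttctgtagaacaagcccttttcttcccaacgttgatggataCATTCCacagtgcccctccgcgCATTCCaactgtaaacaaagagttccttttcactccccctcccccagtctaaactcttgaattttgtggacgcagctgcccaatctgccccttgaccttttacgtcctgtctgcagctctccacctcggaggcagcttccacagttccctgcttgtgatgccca
Ccn1, chr3:145649986-145650235, minus strand: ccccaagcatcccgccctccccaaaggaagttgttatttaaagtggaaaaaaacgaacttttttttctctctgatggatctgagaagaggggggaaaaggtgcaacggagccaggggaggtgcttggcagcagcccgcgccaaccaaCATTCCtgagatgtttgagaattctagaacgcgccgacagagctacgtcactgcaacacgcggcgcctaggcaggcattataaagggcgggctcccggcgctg

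Ankrd1 carried 2 copies on the gene's strand, whose first bases lie 210 and 123 bases before the start. Ajuba carried 2 on the opposite strand, at 186 and 164 bases, and Axl carried 1 at 233 bases. Ccn1 had 1 at 103 bases and Amotl2 1 at 65 bases, both on the opposite strand. Yap1 had 1 at 141 bases, and the pair of annotated Wwtr1 starts share 1 site, at 136 or 170 bases. The AP-1 word TGANTCA (any base at N), bound by factors that often act beside TEAD and present in 6.75% of all promoters, was in none of the members' windows, nor was the CArG box of serum response factor (1.47%). A match is a description of letters and no evidence of binding. Genes that passed as higher on the dKO arrays and have a RefSeq window held the TEAD word in 14.5% of 702 cases, against 13.4% of all 16990 tested genes with a window.

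**Figure D1:**
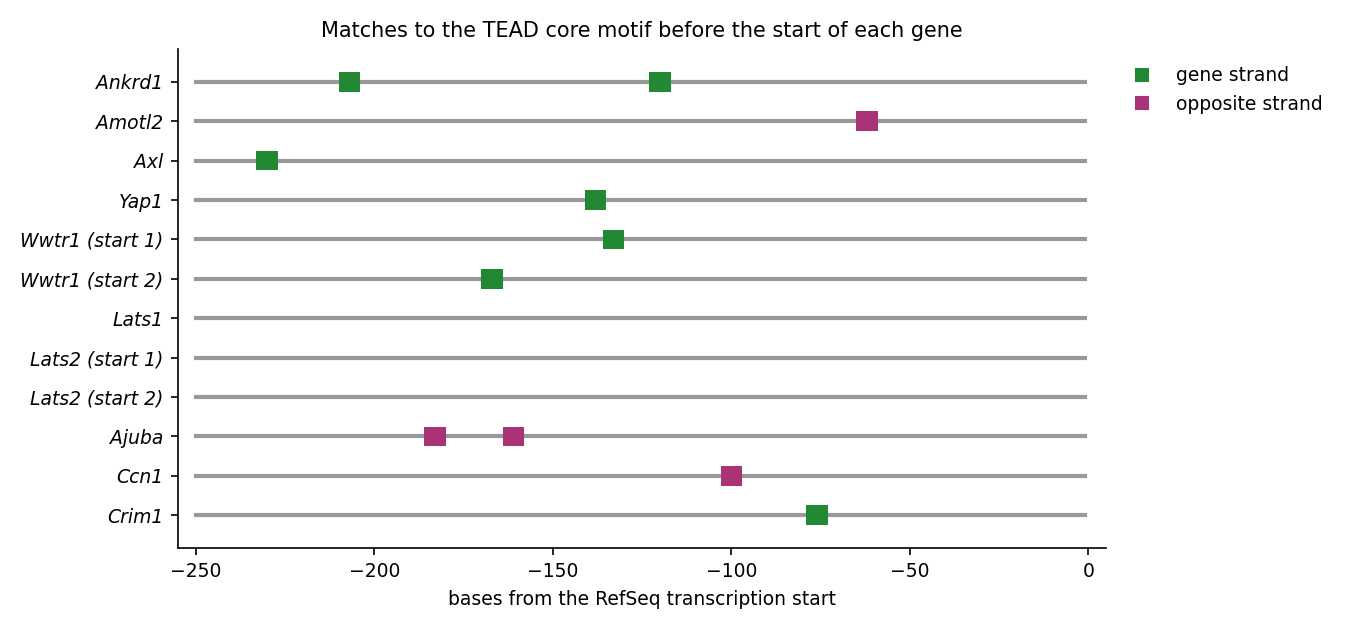
Matches to GGAATG on either strand in the 250 bases before the RefSeq start (x axis, bases from the start) of 8 member genes and 2 further YAP targets, Ccn1 and Crim1; colour gives the strand. Ankrd1 and Ajuba have 2 matches each, and Lats1 and Lats2 have none.

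Between the groups, the target genes Ankrd1 and Axl and the adaptor gene Ajuba stood apart, and no difference in the coactivators, the LATS kinases or the TEAD members passed. Of the 9 members beside Ankrd1, 2 passed as higher on the dKO arrays in the fit over all genes (Axl and Ajuba) and none as lower. Over all genes tested 7.2% passed, 4.12% as higher and 3.08% as lower. The median log2 difference over the 10 members was 0.16, and -0.01 over all genes. In 7 members the groups did not overlap, with the dKO arrays above in 6 and below in Tead4; over all genes 22.5% did not overlap, 11.7% with dKO above and 10.8% with dKO below. The set was assembled with this contrast in view, so nothing is read from these shares.

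**Figure D2:**
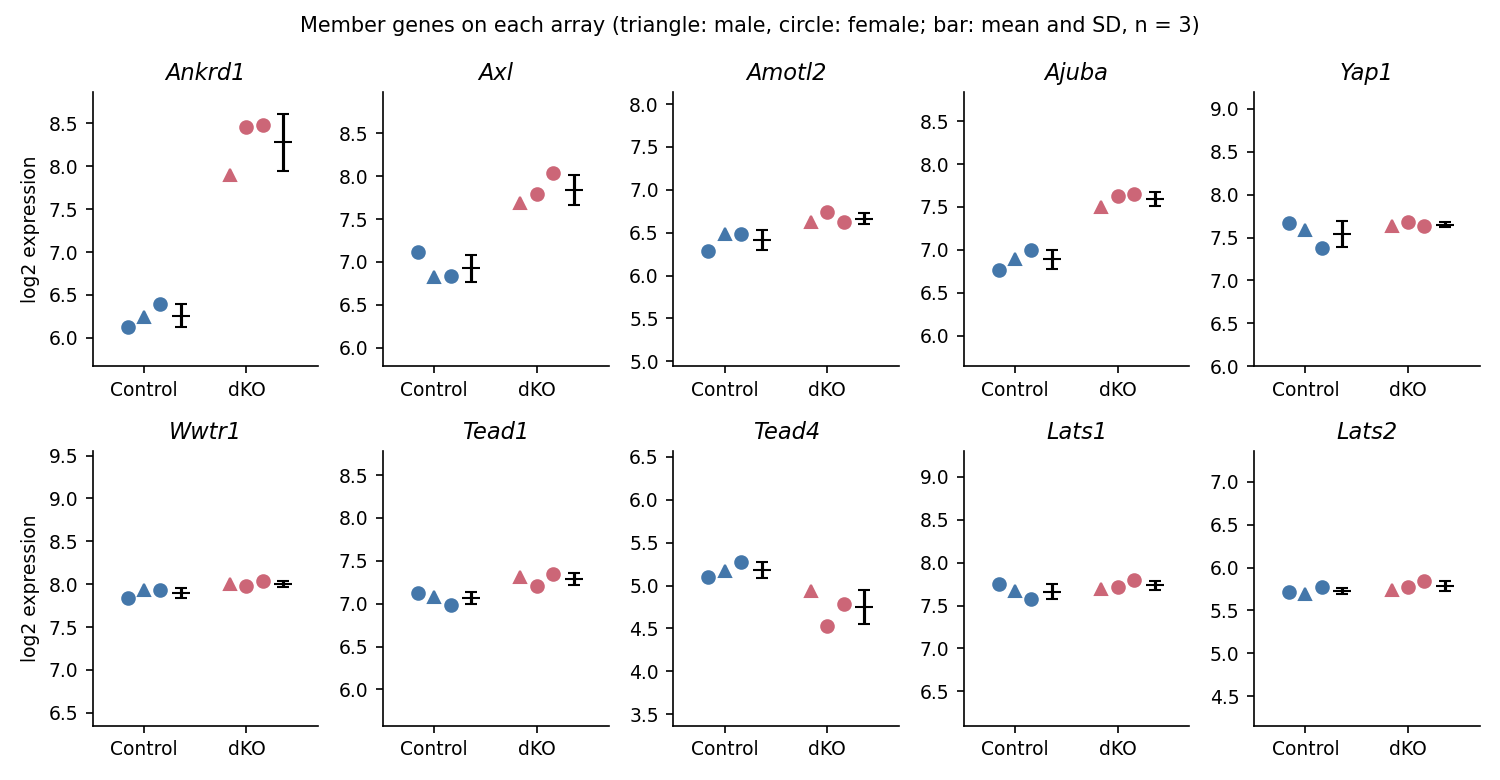
Log2 expression (y axis, each panel spanning the same log2 range) of the 10 member genes on each array, controls in blue and dKO in red, with triangles for males and bars for mean and SD (n = 3). Ankrd1, Axl and Ajuba have clearly separate groups, and the 3 dKO arrays of Tead4 lie below its controls.

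Among the target genes, Ankrd1 (Entrez gene 107765) had the widest gap. It encodes a muscle ankyrin repeat protein that shuttles between sarcomere and nucleus in heart muscle and is strongly induced by YAP in many epithelia. Its log2 level was 6.13, 6.24 and 6.40 on controls 2, 4 and 6, and 7.89, 8.46 and 8.49 on dKO 1, 3 and 5. The lowest dKO array lay 1.5 log2 above the highest control, and the male dKO array was the lowest of its group. The sex-adjusted log2 difference was 2.02 ± 0.14 (SE), a 4.06-fold higher level. The 95% confidence interval ran from 1.69 to 2.35, with no allowance for how the gene was chosen. Among the 22180 genes it ranked 14 by the size of the rise. With any single array left out the difference lay between 1.89 and 2.21. Here and below, the fits without dKO 1 and without control 4 are identical, since the male that remains is fitted exactly. Both equal a fit of the females alone.

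Axl (Entrez gene 26362) encodes a receptor tyrosine kinase that binds Gas6 and takes part in the clearance of dead cells. Its level was 7.11, 6.83 and 6.83 log2 on controls 2, 4 and 6 and 7.69, 7.79 and 8.03 on dKO 1, 3 and 5. All dKO arrays lay above all controls, by at least 0.58 log2. The difference was 0.91 ± 0.11 (SE), 1.88-fold, with a limma adjusted p of 0.0089, and with single arrays left out the adjusted p lay between 0.023 and 0.040.

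Macrophages are one source of Axl RNA, and macrophage markers moved with it. Over all genes 4.12% passed as higher and 3.08% as lower. Of 8 macrophage markers 7 passed as higher and none as lower, with Cd68 at 1.27 ± 0.11 (SE). Their summed level ranged from 8.94 to 9.10 on the controls and from 9.83 to 10.61 on the dKO arrays. Fibroblast markers, another such source, passed as higher in 4 of 8 cases, and their summed level was 9.89 to 10.30 on controls and 10.63 to 10.96 on dKO arrays. The part of either in the Axl result was not tested. Of 8 endothelial markers none passed in limma's test (1 had an unadjusted p under 0.05), and their summed level was 11.68 to 12.05 on controls and 11.76 to 11.85 on dKO arrays.

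Amotl2 (Entrez gene 56332) encodes an angiomotin-like protein that holds YAP at cell junctions and is itself a YAP target. Its level was 6.29, 6.49 and 6.48 log2 on controls 2, 4 and 6 and 6.63, 6.74 and 6.63 on dKO 1, 3 and 5. The groups did not overlap, by a margin of 0.14 log2, and the difference of 0.24 ± 0.09 (SE) did not pass (limma adjusted p = 0.19). Ajuba (Entrez gene 16475) encodes a LIM-domain scaffold that binds and inhibits LATS kinases. Its level was 6.77, 6.89 and 7.0 log2 on controls 2, 4 and 6 and 7.49, 7.63 and 7.65 on dKO 1, 3 and 5. The dKO arrays were tightly grouped and lay at least 0.49 log2 above the controls. Ajuba was 1.63-fold higher (0.71 ± 0.09, SE; limma adjusted p = 0.011). It also passed with any single array left out, where the adjusted p reached 0.049 at most, but not when all 41345 rows of the table were tested together (adjusted p = 0.056).

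Neither coactivator's transcript passed. Yap1 (Entrez gene 22601) lay at 7.67, 7.58 and 7.38 log2 on controls 2, 4 and 6 and at 7.63, 7.68 and 7.64 on dKO 1, 3 and 5. The dKO values lay within or just above the range of the controls. The difference was 0.10 ± 0.10 (SE; limma adjusted p = 0.62), and its 95% confidence interval, -0.13 to 0.34 log2, leaves room for a small change in either direction. Wwtr1 (Entrez gene 97064) lay at 7.83, 7.93 and 7.93 log2 on controls 2, 4 and 6 and at 8.00, 7.97 and 8.04 on dKO 1, 3 and 5. Its groups were separate by only 0.04 log2, and the difference of 0.11 ± 0.08 (SE) had an interval from -0.08 to 0.29 (adjusted p = 0.50).

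The TEAD partners had differences of opposite sign. Tead1 (Entrez gene 21676) lay at 7.13, 7.08 and 6.99 log2 on controls 2, 4 and 6 and at 7.31, 7.21 and 7.35 on dKO 1, 3 and 5, with no overlap. Its difference of 0.22 ± 0.09 (SE) did not pass (limma adjusted p = 0.19). Tead4 (Entrez gene 21679), a TEAD gene best known from the early embryo's trophectoderm and from muscle, was the 1 member with lower values on all dKO arrays. Its level was 5.10, 5.17 and 5.28 log2 on controls 2, 4 and 6 and 4.93, 4.53 and 4.79 on dKO 1, 3 and 5. The difference of -0.43 ± 0.11 (SE) did not pass either (adjusted p = 0.075).

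The remaining TEAD genes were outside the set but on the list of nuclear factors. Tead2, which is chiefly expressed in the embryo, rose from 4.23 ± 0.06 to 4.80 ± 0.11 log2 (SD, n = 3), a difference of 0.57 ± 0.09 (SE; limma adjusted p = 0.017). This call was lost in 5 of the 6 fits with 1 array left out, all but that without dKO 3 (adjusted p up to 0.071). Tead3 had a difference of 0.31 ± 0.08 and did not pass (adjusted p = 0.081).

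Of the inhibitory kinases, Lats1 (Entrez gene 16798) lay at 7.75, 7.67 and 7.58 log2 on controls 2, 4 and 6 and at 7.69, 7.72 and 7.80 on dKO 1, 3 and 5. Lats2 (Entrez gene 50523), which is also a YAP target and so part of a feedback loop, lay at 5.72, 5.69 and 5.77 log2 on controls 2, 4 and 6 and at 5.74, 5.77 and 5.84 on dKO 1, 3 and 5. The groups overlapped for both. The differences were 0.07 ± 0.08 for Lats1 (SE; 95% interval -0.13 to 0.28; limma adjusted p = 0.69) and 0.06 ± 0.08 for Lats2 (-0.12 to 0.24; adjusted p = 0.73).

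Sex, which played no part in choosing the genes, was tested in the same model. No member differed between males and females in limma's test (0 of 10, and 0 at an unadjusted p under 0.05, against 1.87% of all genes passing), and none did with a trended and robust prior. The genotype difference did not pass a test of dependence on sex in any member either, where 0.00451% of all genes passed. The lowest p of that test was Ankrd1's: the log2 difference was 2.21 in females and 1.65 in the 1 male pair (limma adjusted p = 0.69). It was the sole member with an unadjusted p under 0.05 there. In the males the called members Axl and Ajuba kept their direction, at 0.86 and 0.60.

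A wider list of 22 commonly used YAP and TAZ target genes, of which 21 were analysed, places the targets in context. Of these, 6 passed as higher and 1 as lower, with a median log2 difference of 0.24. The members on it are Ankrd1, Axl, Amotl2 and Lats2; without them 4 of 17 passed as higher and 1 as lower, with a median of 0.20. Beside the 4.12% and 3.08% of all genes, these counts describe the list only, since it too was written with results of these data known.

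Ccn1, which encodes the secreted matrix protein CYR61, rose 3.25-fold. Its level was 7.03, 7.13 and 6.73 log2 on controls 2, 4 and 6 and 8.36, 9.13 and 8.50 on dKO 1, 3 and 5, with the groups far apart (1.7 ± 0.21, SE; limma adjusted p = 0.0099). Its adjusted p was 0.051 without control 2 and 0.054 with all 41345 rows tested. Ccn2, encoding the related connective tissue growth factor, was at 7.54 ± 0.27 against 8.26 ± 0.29 log2 (SD, n = 3). Its difference of 0.71 ± 0.19 (SE) did not pass (adjusted p = 0.076).

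Further rises on the list were in Myof, Ccdc80 and Crim1. Myof encodes a ferlin that repairs and fuses membranes; it rose by 1.01 ± 0.08 log2 (SE; limma adjusted p = 0.0035) and passed in all 6 fits that left out 1 array, but not without sex in the model (adjusted p = 0.11). Ccdc80, a matrix protein gene of fibroblasts, rose by 0.87 ± 0.14 (adjusted p = 0.018), but not without control 2 or without control 6 (up to 0.076), nor without sex in the model (0.051). Crim1, a transmembrane antagonist of bone morphogenetic proteins, rose by 0.50 ± 0.08 (adjusted p = 0.022), which was lost without control 2, control 6, dKO 3 or dKO 5 (up to 0.085) and without sex in the model (0.091).

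The 1 fall on the list was in F3, the tissue factor that starts blood clotting, at -0.40 ± 0.09 log2 (SE; limma adjusted p = 0.0497). Its groups overlapped, and it did not pass in any fit with 1 array left out (adjusted p up to 0.15), nor without sex in the model (0.65). F3 also differed between the sexes: the male arrays, control 4 and dKO 1, stood at 7.63 and 7.05 log2 and the female arrays between 6.18 and 6.54. Males were 0.99 ± 0.10 higher (SE; adjusted p = 0.0064). Of the other targets, 2 differed by sex: Nt5e, which was 1.02 ± 0.14 higher in males (adjusted p = 0.025), and Myof, where males were lower at -0.71 ± 0.09 (adjusted p = 0.018). Tgfb2, a transforming growth factor ligand, had groups that did not overlap and an adjusted p of 0.0501 between genotypes (0.82 ± 0.19).

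**Figure D3:**
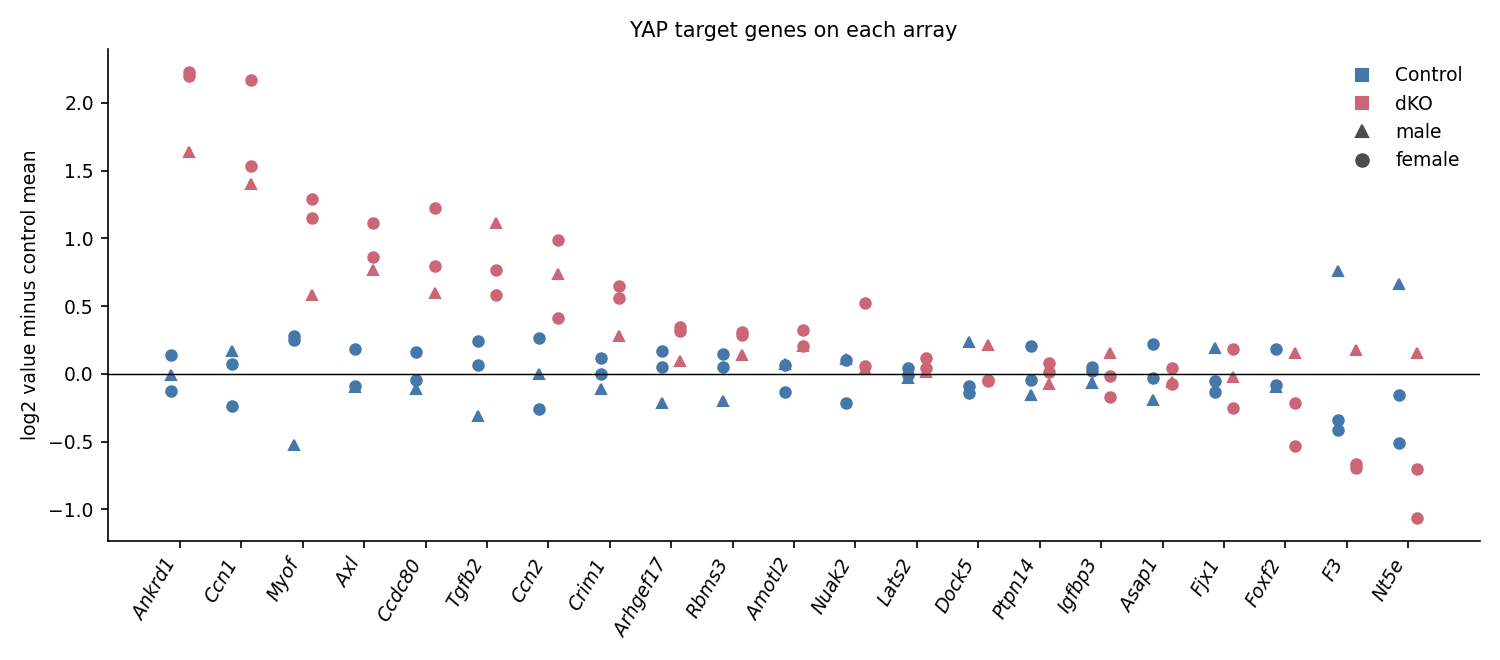
Log2 value minus the control mean (y axis) for the 21 analysed YAP target genes (x axis, ordered by the genotype difference) on each array, controls blue, dKO red, triangles for males. Ankrd1 and Ccn1 lie farthest above 0 on all dKO arrays, whereas for F3 and Nt5e the triangles of both groups sit high.

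The genes of the pathway itself were counted over 3 lists. These lists (kinase module, upstream and adaptor proteins, nuclear factors) held 36 genes, of which 33 were analysed. Of these, 3 passed as higher, Ajuba, Tead2 and Vgll3, and none as lower. Without the members, 2 of 25 passed, where 7.2% of all genes did and 4.12% as higher, and the median log2 difference was 0.11. In the kinase module none of 8 passed in limma's test (0 at an unadjusted p under 0.05), and the differences ran from -0.08 to 0.27. That module includes the MST kinase gene Stk4 (0.04 ± 0.08, SE), its scaffold Sav1 (0.12 ± 0.08) and the LATS cofactors Mob1a (0.14 ± 0.09) and Mob1b (-0.08 ± 0.08).

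Of 15 upstream and adaptor genes 1 passed, Ajuba, against the same 7.2% of all genes. Its LIM-protein relatives Limd1 and Wtip had differences of 0.11 ± 0.10 and 0.21 ± 0.08 (SE). The relatives of Amotl2, Amot and Amotl1, had 0.12 ± 0.09 and 0.00 ± 0.08, and Nf2, the merlin tumour suppressor at the head of the pathway, had 0.09 ± 0.09. Among nuclear factors, Vgll3, a TEAD cofactor that competes with YAP, rose from 5.18 ± 0.05 to 6.14 ± 0.43 log2 (SD, n = 3), by 0.96 ± 0.18 (SE; limma adjusted p = 0.031). That call was lost without control 2, control 6 or dKO 3 (adjusted p up to 0.12), and without sex in the model (0.062). Whether Ajuba differed from its relatives was not tested.

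**Figure D4:**
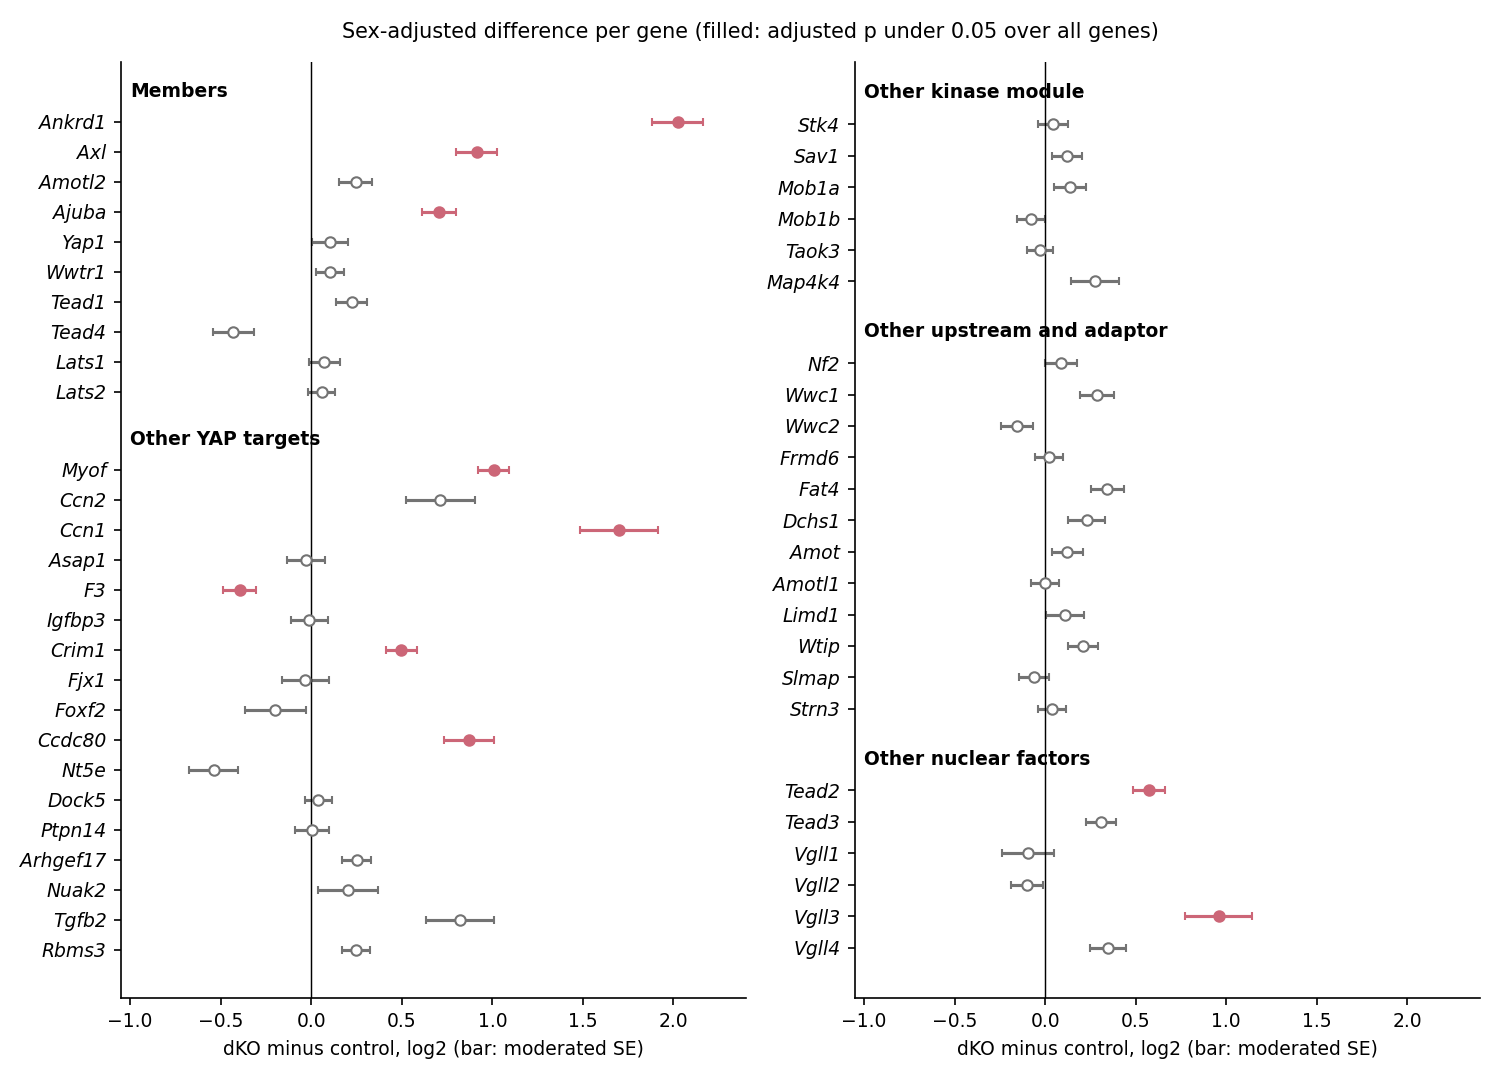
Sex-adjusted log2 difference, dKO minus control (x axis), with its moderated SE for the members and the other genes of the 4 pathway lists; filled red points passed at an adjusted p under 0.05 over all genes. Among the members Axl, Ajuba and Ankrd1 are filled, Ankrd1 as a description with no test, and in the kinase module no point is.

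Relatives and partners of the target genes give further context. Ankrd2 and Ankrd23, the other muscle ankyrin repeat genes, had differences of -0.08 ± 0.10 and 0.57 ± 0.15 (SE), and neither passed (limma adjusted p = 0.71 and 0.078). Ankrd1 is classically found in striated muscle. Of 10 striated muscle markers none passed in limma's test (0 at an unadjusted p under 0.05), against 7.2% of all genes. Among the 10, 4 had a mean below 2.98 log2, the 25th percentile of gene means. The summed level of all 10 was 6.80 to 6.89 on controls and 6.71 to 6.80 on dKO arrays. The part of muscle tissue in the Ankrd1 values was not tested.

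Both ligands of the receptor family that holds Axl, Mertk and Tyro3 also rose. Gas6 rose by 0.50 ± 0.08 log2 (SE; limma adjusted p = 0.019) and Pros1, encoding protein S, by 0.97 ± 0.10 (adjusted p = 0.0060). The call of Pros1 was kept with any single array left out, and that of Gas6 was lost in 5 of 6 such fits, all but that without dKO 3 (up to 0.080), and without sex in the model (0.076). The sister receptors Mertk and Tyro3 had differences of 0.05 ± 0.10 and 0.11 ± 0.08 and did not pass.

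Targets of serum response factor, whose MRTF cofactors respond to actin much as YAP does, were counted likewise. Of 10, 3 passed as higher, against 4.12% of all genes, with a median log2 difference of 0.27. They were Flna, the actin cross-linker filamin A (0.99 ± 0.09, SE; limma adjusted p = 0.0043), Tpm1, a tropomyosin (0.56 ± 0.08; 0.012), and Tagln (0.83 ± 0.15; 0.027). Flna passed with any single array left out. Tpm1 no longer passed without control 6 or without control 2 (adjusted p up to 0.059), nor did Tagln in 5 of 6 such fits, all but that without control 2 (up to 0.10).

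The genes most like Ankrd1 were sought among 1704 genes with a range of at least 1 log2 and a mean above the 25th percentile. The 5 highest Pearson correlations over the 6 arrays were those of Ctsc (0.998), Scara3 (0.998), Ly86 (0.996), Dcdc2a (0.995) and Apob (0.993). All 5 separate the same groups, and these points share their arrays, so the values only describe the ordering. Ctsc, encoding the lysosomal protease cathepsin C, stood between 7.15 and 7.35 log2 on the controls and at 8.29, 8.61 and 8.62 on dKO 1, 3 and 5. Like Ankrd1, it was lowest within the dKO group on the male array.

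Proliferation and tubular injury markers were higher on the arrays where Ankrd1, Axl and Ajuba were higher. The share of all genes that passed as higher was 4.12%. Of 7 analysed proliferation markers 7 passed as higher, and their summed level was 8.64 to 8.89 on controls and 9.34 to 10.02 on dKO arrays. Of 9 injury markers 8 passed as higher, with a summed level of 10.11 to 10.46 against 11.35 to 11.75. The dKO 1 array was the lowest of its group in the median of the macrophage, fibroblast, proliferation and injury lists, as it was for Ankrd1, Axl and Ajuba. The part of these in the values of the 3 genes was not tested. Among 6 markers of podocytes, the filtration cells of the glomerulus, none passed (1 at an unadjusted p under 0.05 in limma's test), with summed levels of 9.08 to 9.54 on controls and 9.13 to 9.52 on dKO arrays. Urothelial markers passed as higher in 2 of 7 cases, Krt20 (1.24 log2) and Krt7 (0.54). No uroplakin (Upk) gene on the list passed, with differences from -0.05 to 0.32. The summed level of the list was 9.27 to 10.20 on controls and 9.49 to 10.17 on dKO arrays.

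**Figure D5:**
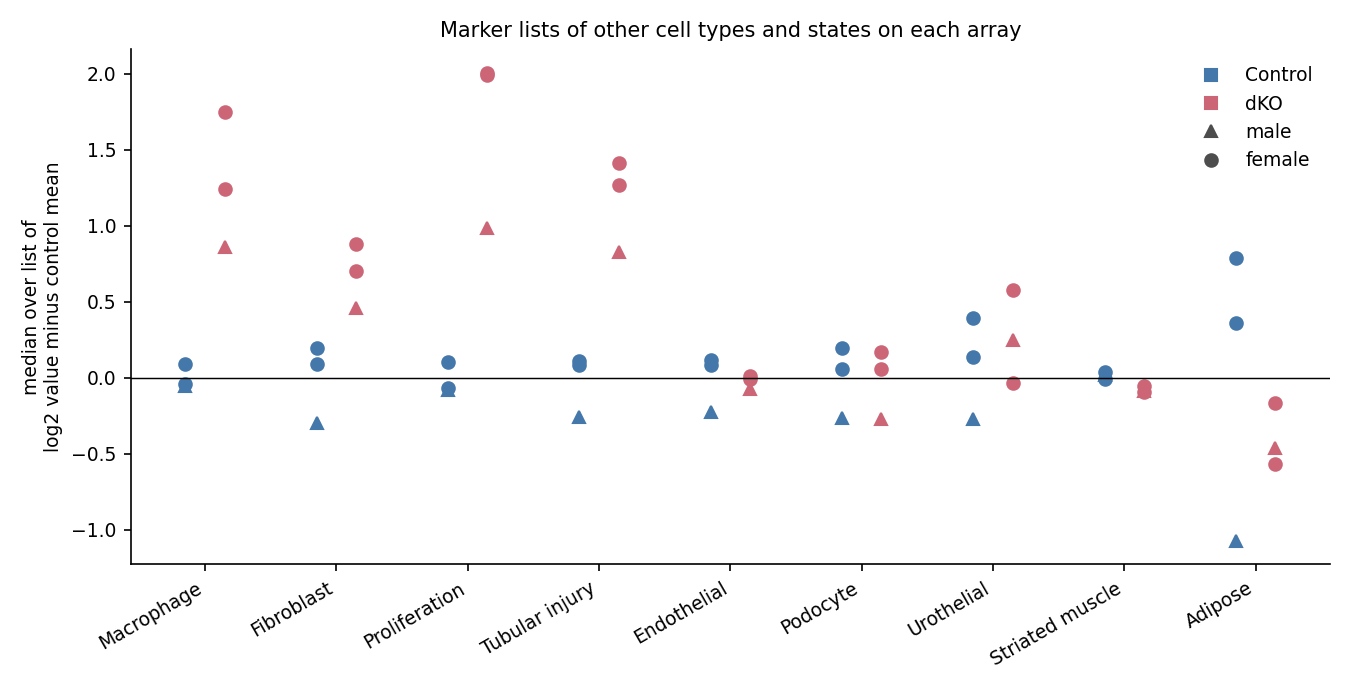
Median over each marker list of the log2 value minus the control mean (y axis) on each array, for 9 lists (x axis), controls blue, dKO red, triangles for males. Macrophage, fibroblast, proliferation and injury lists lie above the controls on all dKO arrays, and the adipose list is spread widely over the controls.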

How the data were processed

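The deposited values are log2 expression for each transcript cluster. The submitters' processing notes list RMA, limma and R 3.4.0 without roles; a genome build is not given there, nor are filters. The authors' log2 values were used unchanged. The platform annotation named 1 gene for 23521 of 41345 clusters (several for 1814, none for 16010); the highest-mean cluster per gene left 22180 genes. Of the 1-gene clusters 23328 matched the RefSeq table of GRCm38.p6 by gene identifier. limma 3.58.1 in R 4.3.3 fitted genotype and sex on 6 arrays (6.72 total degrees of freedom), with Benjamini-Hochberg adjustment over all genes and a threshold of 0.05. A genotype by sex term was fitted separately, with 2 residual degrees of freedom. The fit was tested on simulated data. Promoter windows came from RefSeq (GRCm38.p6).

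The members, the lists and the tests were chosen with earlier results of these data known. Listed genes not analysed here include Gadd45a, Stk3, Taok1, Rassf1, Krt5, Spp1 and Ccnb1. Of these, Gadd45a, Taok1 and Rassf1 have values only on clusters that name several genes, which were left out. Named were all members, the listed pathway genes that passed, relatives of members, up to 3 genes per marker list, and the 5 genes most like Ankrd1. Sav1, Mob1a, Mob1b, Nf2, Tgfb2, Nt5e, Acta2, Cnn1, Actg2, Myl9, Ucp1, Plin1 and Cox8b were added after their values were seen. Alternatives were a model without sex, females alone, each array left out, weights per array, a robust prior with a trend, median centring, quantile normalization, leaving out genes below 2.98 log2, the mean of a gene's clusters, every row tested and, added after seeing the data, removal of controls 2 and 6 together.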

Additional observations from a re-analysis of the deposited data

How the results depend on the processing

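The sign of the difference held in all 10 members under each of the 16 alternatives, in some of them only just. The Yap1 difference shrank to 0.0005 ± 0.08 (SE) with the mean of a gene's clusters. That of Lats2 shrank to 0.005 ± 0.08 with quantile normalization. Females alone, the fit without dKO 1 and the fit without control 4 are the same fit, because a lone male is fitted exactly. They count as 1 check, and every count of fits with single arrays left out repeats it. The count of 3 members past the threshold, with Ankrd1 counted as a description, was 3 in every planned one except with every row tested, where it was 2 (Ajuba lost). With every row tested, Ccn1, F3, Crim1, Ccdc80, Tead2, Vgll3, Gas6, Tagln and Tpm1 also lost their calls, and with females alone Tead2, Gas6, Tagln and F3 did. Without controls 2 and 6 together, a fit with 1 residual degree of freedom in which 0 of 22180 genes passed (2329 at an unadjusted p under 0.05), 0 members, 0 YAP targets and 0 Hippo pathway genes passed (3, 8 and 3 at an unadjusted p under 0.05), so that fit says nothing about stability; Ankrd1 stood at 1.65 log2 there. The YAP target count of 7 was 3 without sex in the model and 3 with every row tested, and 3 to 6 with single arrays left out (3 without control 2, 4 without control 6). The pathway count of 3 was 0 with every row tested (limma; 8 at an unadjusted p under 0.05) and 1 to 2 with single arrays left out, 1 without control 2 or control 6. The member counts for sex and for genotype by sex were 0 in the alternatives run for them (single arrays left out, a trended and robust prior, quantile normalization); the male arrays could not be left out of the latter. Genes called in all fell from 1596 to 344 without control 2 and to 356 without control 6. They also fell to 529 without dKO 5, to 613 without dKO 3 and to 1249 without dKO 1 or without control 4. Without sex in the model 471 were called. The cause was not tested. No paired analysis was possible because the groups share no replicate numbers.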

Other observations

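For smooth muscle genes on the serum response factor list, the genotype contrast was set out by sex. Acta2, smooth muscle actin, stood at 7.53 log2 on control 4, the male control, and between 8.45 and 8.74 on the other 5 arrays. Its log2 difference was 0.01 in females and 1.21 in the male pair (limma adjusted p = 0.44). Cnn1 (-0.42 in females, 1.04 in males; adjusted p = 0.62) and Actg2 (-0.41 and 0.75; adjusted p = 0.66) went the same way. Control 4 had the lowest value of the 6 arrays for Acta2, Cnn1 and Actg2. Tagln, on the same list, was higher in females (0.70) as well as in males (1.09), and Myl9 had 0.03 and 0.36. Most adipose markers split like Acta2, Cnn1 and Actg2 on the same arrays. Ucp1 had -3.35 in females and 1.58 in males (limma adjusted p = 0.11), and Plin1 had -1.06 and 0.61 (adjusted p = 0.62). Cox8b did not split so, at 0.26 and 0.80. Control 4 also had the lowest summed level on the adipose (6.28 log2), urothelial (9.27), podocyte (9.08), endothelial (11.68) and fibroblast (9.89) lists. It did not on the striated muscle list (6.82, against 6.71 on dKO 3). The part of any of these lists in the smooth muscle values was not tested. Tgfb2 of the YAP target list had 0.52 in females and 1.42 in males (adjusted p = 0.58), and Ankrd23 of the muscle ankyrin repeat family had 0.81 and 0.10 (adjusted p = 0.62). None of these passed for genotype by sex, and with 1 male per group the male value rests on single arrays.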
